A study of Mus musculus with 6 samples.

Results

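The gene for the fibroblast surface protein Thy1 and the genes of the platelet-derived growth factor (PDGF) system were examined in immortalized murine embryonic fibroblasts (MEF), cells grown out of mouse embryos. The 10 genes were Thy1; the receptors Pdgfra and Pdgfrb; the ligands Pdgfa, Pdgfb, Pdgfc and Pdgfd; and the fibroblast-associated genes Vim, Fap and Ddr2. They were taken by gene name from 34797 gene and target names on the array, and were measured by 13 of its 55681 probes. The set was chosen by earlier results of these same arrays, in which Thy1 and Pdgfra were seen to be higher in TIAR KO MEF, so the values of these 2 genes are described here without a test. The other 8 genes entered the set by name.

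Each of 3 groups had 2 arrays, from separate samples per the study's methods. WT MEF carried both genes of the RNA-binding proteins TIA1 and TIAR, and the labels give their strain as W4. TIA1 KO MEF lacked the gene for TIA1 and were BALB/c, and TIAR KO MEF lacked the gene for TIAR (Tial1) and were C57BL/6. Genotype, strain and cell line therefore cannot be told apart. How many embryos or clones stood behind each line is not given in the sources used here. A single slide, read in 1 scan, held the 6 arrays. The TIA1 KO arrays occupied its row 2 and the other 4 arrays row 1, so TIA1 loss and slide row also cannot be told apart. Values given below as without TIA1 and without TIAR are those of TIA1 KO and TIAR KO MEF. The TIA1 KO arrays had a median intensity over all spots of 458 and 218, where the WT arrays had 152 and 140 and the TIAR KO arrays 136 and 119. Their negative control spots had medians of 196 and 119, those of the WT arrays 112 and 103 and those of the TIAR KO arrays 96.7 and 88.6. Fewer of their probes were rated well above background by the scanner software, 16021 and 19996, against 23569 and 26295 in WT MEF and 24796 and 26011 in TIAR KO MEF.

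Thy1 is a small glycoprotein anchored in the outer leaflet of the plasma membrane, and is used to sort fibroblasts and thymocytes. PDGF ligands are secreted dimers that bring 2 receptor chains together, after which the receptors phosphorylate themselves and drive proliferation and migration of mesenchymal cells. PDGF-A and PDGF-C act mainly through the alpha receptor, PDGF-B through both receptors and PDGF-D mainly through the beta receptor. PDGF-C and PDGF-D are secreted as latent forms that proteases activate. Vim encodes vimentin, the intermediate filament protein of mesenchymal cells, Fap a cell surface serine protease of activated fibroblasts, and Ddr2 a receptor tyrosine kinase that binds fibrillar collagen.

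The sequences that the 2 leading genes were read from are shown by the last 30 bases of their 60-base probes, written 5′ to 3′ in the sense of the transcript on mm9, with the polyadenylation signal letters AATAAA in capitals where they occur. The Thy1 stretch, chr9:43856621-43856650 on the plus strand, held 1 such signal, and the Pdgfra stretch, chr5:75593918-75593947 on the plus strand, held 0. The complete probes of Pdgfd, chr9:6376926-6376985 on the plus strand, and of the dimmer Ddr2 probe, chr1:171914554-171914613 on the minus strand, are shown because the groups are told apart by them below.
Thy1 probe end: aggaaagaaaactgcacAATAAAaccaagc
Pdgfra probe end: gaatactgccaaaatgtgtatgacaagctg
Pdgfd probe: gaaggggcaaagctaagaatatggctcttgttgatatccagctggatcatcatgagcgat
Ddr2 probe: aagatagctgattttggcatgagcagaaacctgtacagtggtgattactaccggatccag

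Promoter windows of 250 bases before the transcript start were taken for 6 of the 10 genes from RefSeq's table for GRCm38.p6, and 3 are shown. The other genes, Pdgfrb among them, have no window here, which does not mean that the table lacks them. Pdgfra and Pdgfc are a receptor and a ligand that were both higher in each knockout, and Vim is a gene with high signal in all groups. Windows were searched on both strands for the letters TATAAA of the TATA box, for those of the CCAAT box, for GGGCGG of the GC box and for TGANTCA of the AP-1 site, which do not overlap in these windows, and matches are in capitals. The Vim window, chr2:13574061-13574310 on the plus strand, held 1 TATA box 32 to 27 bases before the start and 2 CCAAT boxes. The windows of Pdgfra, chr5:75152001-75152250, and Pdgfc, chr3:81036166-81036415, both on the plus strand, held 0 matches to any of the 4 motifs. Of the windows not shown, that of Pdgfd held 1 TATA box 160 to 155 bases before the start, that of Ddr2 held 1 TATA box 185 to 180 bases before it, and the 2 windows of Pdgfa held 1 and 2 GC boxes. Over all 32851 windows of the table, 12.4% held the TATA letters, 33.8% the CCAAT letters, 32.7% the GC box and 6.7% the AP-1 letters. A match is a match of letters only.
Pdgfra promoter: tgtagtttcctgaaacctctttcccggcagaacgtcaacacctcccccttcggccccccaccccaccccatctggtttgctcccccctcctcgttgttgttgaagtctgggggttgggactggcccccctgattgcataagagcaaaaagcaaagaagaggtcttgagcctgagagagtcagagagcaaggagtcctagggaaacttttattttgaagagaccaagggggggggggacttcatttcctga
Pdgfc promoter: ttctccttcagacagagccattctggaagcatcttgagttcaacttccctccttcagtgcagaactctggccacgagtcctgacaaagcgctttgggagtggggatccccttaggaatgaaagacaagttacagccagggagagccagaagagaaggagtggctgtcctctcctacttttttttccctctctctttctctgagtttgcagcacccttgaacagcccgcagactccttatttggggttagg
Vim promoter: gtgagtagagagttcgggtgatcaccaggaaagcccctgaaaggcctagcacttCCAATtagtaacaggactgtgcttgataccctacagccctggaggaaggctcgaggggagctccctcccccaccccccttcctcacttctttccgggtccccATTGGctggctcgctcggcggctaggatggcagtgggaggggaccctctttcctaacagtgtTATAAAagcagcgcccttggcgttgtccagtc

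The Tia1 and Tial1 probes were read first as a check of the labels. The brightest Tia1 probe gave normalized log2 intensities of 10.72 and 8.54 in WT MEF, 7.87 and 8.44 without TIA1 and 9.56 and 9.58 without TIAR. The TIA1 KO values were below the WT values, but the difference of -1.47 ± 0.79 (limma, log2 fold change ± SE, n = 2 arrays per group) did not pass the test, with a Benjamini-Hochberg adjusted p of 0.29, and it ranged from -2.56 to -0.38 with 1 array left out, the smallest without WT array 1. For Tial1, the dimmer probe gave 11.71 and 11.09 in WT MEF, 11.85 and 11.49 without TIA1 and 10.00 and 9.65 without TIAR, and without TIAR it fell by 1.58 on the log2 scale (SE 0.26, limma, adjusted p = 0.025). The brightest Tial1 probe, with its spot on WT array 1 left out as an outlier, gave a log2 fold change of -2.63. It had 1 WT array in its fit, so the value is given without a test. It ranged from -1.62 without TIAR KO array 1 to -3.65 without TIAR KO array 2, each comparing 1 array with 1. The dimmest Tia1 probe, not well above background on either WT array, gave 0.87 ± 0.28 in TIA1 KO MEF (limma, adjusted p = 0.15). The brighter 2 of the 3 Tia1 probes and both Tial1 probes thus read lower in their own knockout, and whether these probes lie in the deleted parts of the genes is not given in the sources used here. Gapdh, a glycolytic enzyme used as a control, differed by -0.04 ± 0.16 without TIA1 and by 0.09 ± 0.14 without TIAR on its brightest probe. The sign of both differences turned under some of the other settings. With arrays scaled to a common median, Gapdh was -1.41 without TIA1 and passed the thresholds. That is -0.74 relative to the median of all probes under that scaling.

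Of the 8 tested genes, 4 rose and 0 fell against WT MEF in TIA1 KO MEF, namely Pdgfrb, Pdgfb, Pdgfc and Pdgfd, by limma with a Benjamini-Hochberg adjusted p below 0.05 and more than a 2-fold difference. Over all 55681 probes of that comparison, 2.18% were called higher and 1.36% lower. In TIAR KO MEF 4 of the 8 rose and 0 fell, namely Pdgfrb, Pdgfa, Pdgfb and Pdgfc, where 3.39% of all probes were called higher and 2.37% lower, a comparison whose results were known when the genes were chosen. The median log2 fold change of the 8 genes was 2.17 without TIA1 and 1.04 without TIAR, against -0.09 and -0.02 over all probes. Both comparisons share the WT arrays. Ddr2 stands in these counts as not called, by a probe with a value on only 1 WT and 1 TIAR KO array. Every call of the TIA1 KO comparison was lost without either WT array, when 0 probes passed by limma and 7202 (without WT array 1) or 7415 (without WT array 2) had an unadjusted p under 0.05, and also with the scanner software's processed signal in place of the normalized values. Between the knockouts, only Pdgfd of the 8 genes passed the test, lower in TIAR KO MEF, where 1.72% of all probes were called higher and 1.63% lower.

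**Figure D1:**
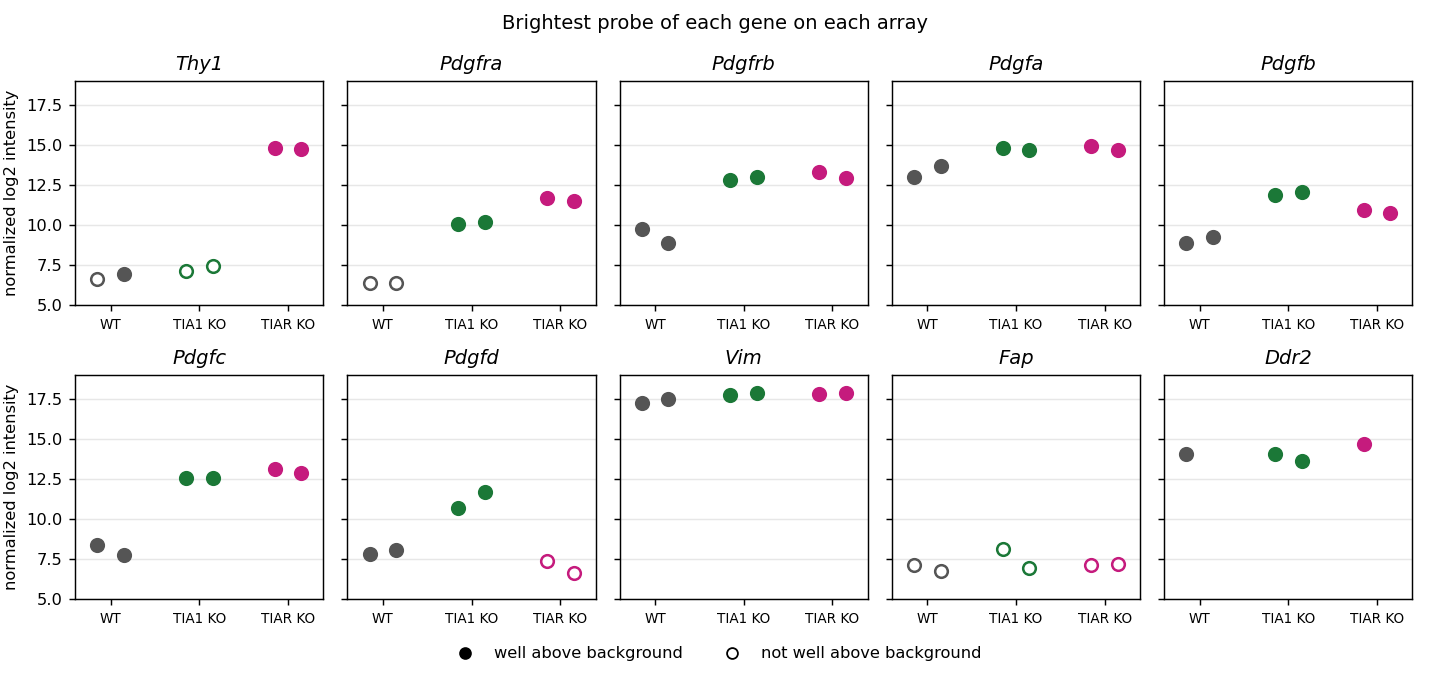
Normalized log2 intensity (vertical axis) of the brightest probe of each of the 10 genes on each of the 6 arrays, by group; filled points were rated well above background and open points were not. Thy1 stands at 14.84 and 14.74 in TIAR KO MEF and at 7.48 or below on the other 4 arrays, and 2 Ddr2 points are missing because their spots were marked as outliers.

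Thy1 was near background in all but TIAR KO MEF. Its normalized log2 intensity was 6.63 and 6.98 in WT MEF, 7.11 and 7.48 without TIA1 and 14.84 and 14.74 without TIAR. Of the 4 low arrays, 1 WT array rated the probe well above background and the other 3 did not. The TIAR KO values lay at least 131-fold above TIA1 KO MEF, a lower limit that sets each TIA1 KO array to the lowest level rated well above background on it where the probe itself was lower. Against WT MEF the measured log2 difference was 7.98 ± 0.18 (n = 2), over a WT level rated well above background on only 1 of 2 arrays, so its size depends on how the background was handled. In the spot intensities before normalization, Thy1 read 139 and 154 in WT MEF, 199 and 164 without TIA1 and 26850 and 21020 without TIAR. The small difference between TIA1 KO and WT MEF, 0.49 ± 0.23, is a difference between levels near background, and its sign was turned by the authors' own log2 table (-0.21) and by leaving out the loess step (-0.28). With arrays only scaled to a common median it was -0.46, which is 0.21 above the median of all probes under that scaling. In RNA of whole cultures, fewer cells that carry a transcript and less of it per cell cannot be told apart.

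Pdgfra, the alpha receptor, was near background in WT MEF and was read well above it in both knockouts. Its level was 6.37 and 6.40 in WT MEF, 10.05 and 10.23 without TIA1 and 11.68 and 11.51 without TIAR, so that the 3 groups did not overlap. Against WT MEF it was at least 26.1-fold higher in TIAR KO MEF and at least 9.52-fold higher in TIA1 KO MEF. The measured log2 differences, 5.21 ± 0.15 and 3.75 ± 0.16, are over a WT level not well above background. With the scanner software's processed signal they were 8.54 and 7.09. Relative to the median of all probes under that signal, they were 8.58 and 5.11. TIAR KO MEF stood 2.75-fold above TIA1 KO MEF (log2 difference 1.46 ± 0.17).

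Pdgfra was printed in 10 spots on each array, which shows how far 1 probe varies within an array. The spots had a median intensity of 119 (112 to 131) and 122 (99.2 to 134) in WT MEF, of 1565 (605 to 1714) and 1248 (867 to 1883) without TIA1, and of 3029 (1818 to 4456) and 2168 (1791 to 2849) without TIAR. No WT spot was rated well above background. All 10 spots were so rated on both TIAR KO arrays and on TIA1 KO array 2, and 8 of the 9 spots kept on TIA1 KO array 1. The lowest kept TIA1 KO spot, on array 1 and itself not rated well above background, lay above every WT spot. The highest spot of TIA1 KO array 2 lay above the lowest spot of each TIAR KO array. These intensities are not scaled between arrays. The median over all spots was 458 on TIA1 KO array 1, against 152 and 140 on the WT arrays. Spots of 1 array share its RNA and are not replicates of a group.

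**Figure D2:**
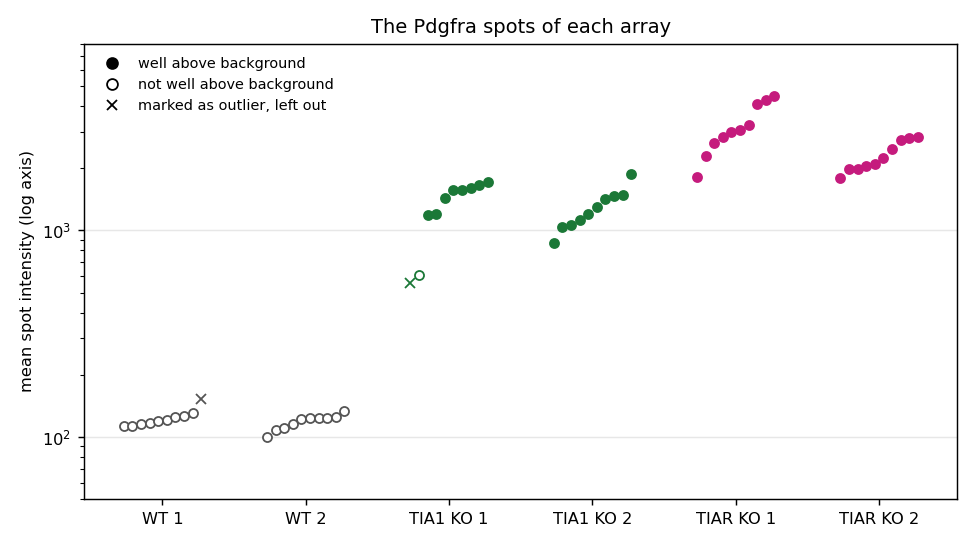
Mean intensity of each Pdgfra spot (log axis, scanner units before normalization) on each array, ordered by intensity within an array; filled points were rated well above background, open points were not, and crosses were marked as outliers and left out. The WT spots lie at about the same low level, and the TIAR KO spots have medians of 3029 and 2168.

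Pdgfrb, the beta receptor, rose in both knockouts. The level was 9.77 and 8.86 in WT MEF, 12.80 and 13.03 without TIA1 and 13.32 and 12.94 without TIAR, and all 6 arrays rated it well above background. The rise was 12.1-fold in TIA1 KO MEF (log2 fold change 3.60 ± 0.35, limma, adjusted p = 0.025) and 14.1-fold in TIAR KO MEF (3.81 ± 0.33, adjusted p = 0.0033). The knockouts overlapped with each other, at a difference of 0.22 ± 0.21 (limma, adjusted p = 0.56). The WT arrays differed by 0.91 from each other, more than the knockout arrays did within their groups.

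**Figure D3:**
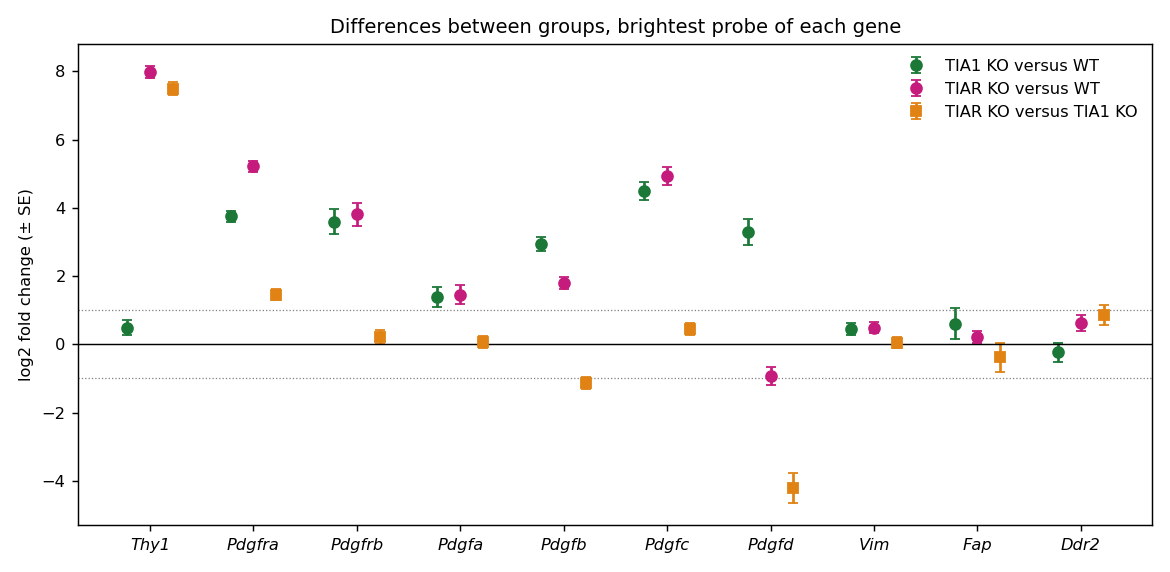
Log2 fold change with its standard error (vertical axis) of the 10 genes in TIA1 KO versus WT, TIAR KO versus WT and TIAR KO versus TIA1 KO MEF. Groups held 2 arrays, except for Ddr2, with 1 WT and 1 TIAR KO array. Dotted lines mark a fold change of 2. Pdgfd is at 3.29 in TIA1 KO MEF and at -0.92 in TIAR KO MEF against WT MEF.

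Among the ligands, Pdgfc showed the largest rise of the 8 tested genes in both knockouts. It read 8.40 and 7.76 in WT MEF, 12.56 and 12.57 without TIA1 and 13.13 and 12.90 without TIAR. The 2 knockouts lay close together and far from WT MEF, 22.4-fold higher in TIA1 KO MEF (4.48 ± 0.26, limma, adjusted p = 0.0086) and 30.5-fold higher in TIAR KO MEF (4.93 ± 0.25, adjusted p = 0.00066). Pdgfb, whose product binds both receptors, read 8.86 and 9.24 in WT MEF, 11.90 and 12.07 without TIA1 and 10.94 and 10.75 without TIAR. It rose 7.66-fold in TIA1 KO MEF (2.94 ± 0.20, limma, adjusted p = 0.012) and 3.47-fold in TIAR KO MEF (1.79 ± 0.19, adjusted p = 0.0060). The TIAR KO arrays lay below the TIA1 KO arrays for Pdgfb, but that difference of -1.14 ± 0.17 did not pass the test (limma, adjusted p = 0.054), though it passed under 5 of 14 alternatives. A second, dimmer Pdgfb probe was not well above background on either WT array and passed no test.

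Pdgfa, the main ligand of the alpha receptor, was already high in WT MEF at 12.99 and 13.72. It read 14.80 and 14.70 without TIA1 and 14.94 and 14.69 without TIAR, and the WT arrays were the lower ones for both knockouts. The change passed the test in TIAR KO MEF (1.46 ± 0.28, limma, adjusted p = 0.039) but not in TIA1 KO MEF (1.39 ± 0.29, adjusted p = 0.091), and these differences were not shown to differ from each other (0.06 ± 0.18, adjusted p = 0.84). The call in TIAR KO MEF was lost without WT array 1 (limma, adjusted p = 0.070), TIAR KO array 1 (0.17) or TIAR KO array 2 (0.13), and the TIA1 KO value was -0.20 when arrays were only scaled to a common median, which is 0.47 above the median of all probes under that scaling (-0.67). A second Pdgfa probe, which overlaps the first by position, gave 1.32 ± 0.20 in TIAR KO MEF (adjusted p = 0.021) and 0.96 ± 0.22 in TIA1 KO MEF (adjusted p = 0.099).

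Pdgfd was the ligand whose difference between the knockouts passed the test. The probe shown above read 7.80 and 8.04 in WT MEF, 10.70 and 11.71 without TIA1 and 7.35 and 6.64 without TIAR. In TIA1 KO MEF it rose 9.75-fold (3.29 ± 0.38, limma, adjusted p = 0.034). In TIAR KO MEF it was not well above background on either array, below both WT arrays, with a difference of -0.92 ± 0.27 that did not pass the test (limma, adjusted p = 0.13). TIAR KO MEF were at least 15.2-fold below TIA1 KO MEF (log2 fold change -4.21 ± 0.45, limma, adjusted p = 0.029). That call was lost without TIAR KO array 1 or 2, as were all calls between the knockouts, in fits with 1 array in that group. With 1 array left out, the Pdgfd difference stayed between -4.71 and -3.70. The TIA1 KO arrays differed by 1.00 from each other.

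Vim was bright on every array. It read 17.24 and 17.49 in WT MEF, 17.75 and 17.87 without TIA1 and 17.82 and 17.89 without TIAR. Both knockouts lay above WT MEF by less than a fold change of 2, at 0.44 ± 0.17 (limma, adjusted p = 0.20) and 0.49 ± 0.16 (adjusted p = 0.16), and neither passed the test. Scaling to a common median alone turned the TIA1 KO value to -1.06, which is -0.38 relative to the median of all probes under that scaling. No array carried a spot that the scanner software rated as saturated.

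Fap was not rated well above background on any of the 6 arrays, with values between 6.75 and 8.13. Its fitted differences, which stand in the counts and medians of the 8 genes, are between levels near background and passed no test, and no fold is given for it.

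Ddr2 was measured by 2 probes, of which only the dimmer had a value on both arrays of each group. The brighter one read 14.07 on WT array 1, 14.03 and 13.62 in TIA1 KO MEF and 14.69 on TIAR KO array 1, since its spots on WT array 2 and TIAR KO array 2 carried outlier marks and did not enter the fit. It gave -0.24 without TIA1 and 0.62 without TIAR, and was called in neither. With 1 array in the WT and TIAR KO groups, these values do not decide whether Ddr2 changed. The dimmer probe, shown above, read 10.47 and 11.08 in WT MEF, 11.44 and 11.32 without TIA1 and 11.97 and 12.04 without TIAR. It was 2.34-fold higher in TIAR KO MEF (1.23 ± 0.23, limma, adjusted p = 0.040) and gave 0.60 ± 0.26 in TIA1 KO MEF (adjusted p = 0.22).

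The other genes of the PDGF pathway, and markers of cell types, were counted from lists, to be read against the 2.18% of all probes called higher and 1.36% lower without TIA1 and the 3.39% and 2.37% without TIAR. Of 8 genes whose products activate or bind PDGF ligands or resemble their receptors, 4 rose without TIA1 and 5 without TIAR, and 0 fell in either, with median log2 fold changes of 1.14 and 1.14 against -0.09 and -0.02 over all probes. Plau, the urokinase protease that activates PDGF-D, read 8.15 and 8.08 in WT MEF, 11.05 and 11.35 without TIA1 and 9.31 and 9.27 without TIAR. Its rise was 3.09 ± 0.18 in TIA1 KO MEF (limma, adjusted p = 0.0084) and 1.18 ± 0.14 in TIAR KO MEF (adjusted p = 0.0090). Plat, the tissue plasminogen activator that activates PDGF-C, rose in TIAR KO MEF (1.53 ± 0.16, limma, adjusted p = 0.0061) and gave 0.41 ± 0.16 in TIA1 KO MEF (adjusted p = 0.19). Nrp1, a co-receptor that binds PDGF among other ligands, rose by 2.72 ± 0.17 and 1.99 ± 0.16 in TIA1 KO and TIAR KO MEF. Pdgfrl, the PDGF receptor-like gene, rose by 1.24 ± 0.16 and 2.57 ± 0.15.

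Signalling components below the receptors mostly did not pass the test. Of 41 such genes, 2 rose and 0 fell in TIA1 KO MEF and 7 rose and 0 fell in TIAR KO MEF, where 2.18% and 3.39% of all probes were called higher, and the list's median was -0.35 and -0.21. For TIA1 KO MEF, 2 of 41 is near that share. Grb10, an adaptor that binds activated receptor kinases, was near background in WT MEF (6.69 and 6.83) and read 9.96 and 10.35 without TIA1 and 8.78 and 8.81 without TIAR, at least 8.90-fold and 3.46-fold higher. The adaptor Nck2 rose in TIAR KO MEF (1.78 ± 0.15, limma, adjusted p = 0.0030), as did Plcg1 (1.30 ± 0.14, adjusted p = 0.0062), a phospholipase that docks on the receptors, and Slc9a3r1 (1.97 ± 0.26, adjusted p = 0.013), a scaffold that binds the receptor's tail. Plcg1 gave 0.11 ± 0.16 and Slc9a3r1 gave -0.44 ± 0.31 in TIA1 KO MEF, and neither passed the test there.

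Genes that PDGF is known to induce in fibroblasts moved in both directions. Of 26 genes, 4 rose and 2 fell in TIA1 KO MEF, and 3 rose and 8 fell in TIAR KO MEF, with medians of -0.28 and -0.52. Has2, a hyaluronan synthase, read 7.82 and 7.61 in WT MEF, 12.97 and 13.34 without TIA1 and 8.22 and 8.61 without TIAR. It rose in TIA1 KO MEF by 5.44 ± 0.21 (limma, adjusted p = 0.0046) and gave 0.70 ± 0.19 in TIAR KO MEF (adjusted p = 0.11). Without TIAR, Egr1, an immediate early transcription factor, fell by 3.68 on the log2 scale (SE 0.15, limma, adjusted p = 0.00037), from 12.37 and 12.28 to 8.55 and 8.74. Ccl2, a chemokine, fell in both knockouts, to 14.38 and 14.43 without TIA1 and 16.56 and 16.67 without TIAR from 17.66 and 17.72. Ctgf, a matricellular protein gene, rose in both, by 3.22 ± 0.22 and 1.56 ± 0.18.

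Receptors and ligands of the same kinase class other than PDGF showed 1 call. Of 7 genes (Kit, Csf1r, Flt3 and their ligands), 0 passed the test without TIA1 and 1 without TIAR, Il34, a ligand of the Csf1 receptor, which fell by 1.44 (SE 0.20, limma, adjusted p = 0.015). Medians were -0.41 and -0.07.

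Relatives of Fap, Ddr2 and Vim numbered 12, of which 1 rose in TIA1 KO MEF, and 3 rose and 1 fell in TIAR KO MEF, with medians of -0.08 and -0.23. Nes, which encodes the intermediate filament protein nestin, read 14.68 and 14.40 in WT MEF, 15.10 and 15.22 without TIA1 and 10.82 and 8.98 without TIAR, and without TIAR it fell by 4.65 (SE 0.59, limma, adjusted p = 0.011). The intermediate filament gene Synm rose in both knockouts, by 2.22 ± 0.26 and 1.44 ± 0.14, and Des, the muscle intermediate filament gene, rose in TIAR KO MEF by 1.15 ± 0.15. Ddr1, the epithelial counterpart of Ddr2, rose in TIAR KO MEF from 10.59 and 10.65 to 12.36 and 12.68 (1.90 ± 0.17, limma, adjusted p = 0.0036).

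Of 10 other surface markers of mesenchymal cells, 3 rose without TIA1 and 2 without TIAR, and 0 fell in either, with medians of 0.34 and -0.03. Ly6a, which encodes the Sca-1 antigen, rose in both, by 2.04 ± 0.18 and 2.84 ± 0.47. Nt5e (CD73) rose in TIA1 KO MEF by 1.73 ± 0.15 and Alcam, an adhesion molecule, by 1.29 ± 0.16, and Vcam1, another adhesion molecule, rose in TIAR KO MEF by 1.62 ± 0.15.

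The labelled cell type was read against 20 fibroblast markers. Of these, 14 were well above background on both WT arrays, 15 on both TIA1 KO arrays and 18 on both TIAR KO arrays, and Lum and Tcf21 were so on none of the 6. Against WT MEF, 10 rose and 0 fell in TIA1 KO MEF and 14 rose and 2 fell in TIAR KO MEF, and the median was 2.14 and 1.98. Dcn, the matrix proteoglycan decorin, read 6.57 and 6.62 in WT MEF, 9.24 and 9.29 without TIA1 and 15.67 and 15.82 without TIAR (measured difference from WT MEF 2.67 ± 0.15 and 9.15 ± 0.15, limma, adjusted p = 0.0077 and 0.00018), and only 1 of the 2 WT arrays and 1 of the 2 TIA1 KO arrays rated it well above background. Mfap5, a microfibril protein gene, stood the other way round, at 14.22 and 14.66 without TIA1 and 8.36 and 8.49 without TIAR. Col3a1, the type III collagen chain, rose in both knockouts by 6.32 ± 0.21 and 6.60 ± 0.50, and Fbln2, a basement membrane protein gene, by 5.28 ± 0.17 and 3.36 ± 0.16. The summed intensity of the list was 483100 and 489300 in WT MEF, 1536000 and 1515000 without TIA1 and 1329000 and 1350000 without TIAR, with S100a4, which passed no test between groups, the brightest gene by its mean over the 6 arrays.

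Mural cells, the smooth muscle cells and pericytes that also carry the beta receptor, were read from 11 markers. Of these, 4 rose in TIA1 KO MEF, and 5 rose and 1 fell in TIAR KO MEF. The summed intensity was 44120 and 55140 in WT MEF, 288800 and 318100 without TIA1 and 511900 and 461800 without TIAR, and Acta2, smooth muscle actin, was the brightest gene by its mean over the 6 arrays. Acta2 rose by 4.85 ± 0.20 and 5.54 ± 0.18, the actin-binding Tagln by 2.93 ± 0.20 and 3.45 ± 0.19, and Notch3, a receptor of vascular smooth muscle, read 7.18 and 6.67 in WT MEF, 9.72 and 9.86 without TIA1 and 12.11 and 12.48 without TIAR. Cnn1, calponin, rose in TIAR KO MEF by 3.30 ± 0.15. Myh11, Rgs5, Kcnj8 and Abcc9, markers of mature smooth muscle and pericytes, were not well above background on any array. Cspg4 (NG2), a gene chosen after its values were seen, rose by 2.50 without TIA1, and without TIAR it fell by 3.24 on the log2 scale. The list's median was 0.65 without TIA1 and 0.17 without TIAR. The part of these genes in the change of Pdgfrb was not tested.

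Markers of other cell types that a culture could hold were read in the same way. Of 10 endothelial markers, 6 (Cdh5, Tie1, Esam, Emcn, Erg and Robo4) were not well above background on any array, and the summed intensity was 14320 and 9971 in WT MEF, 12360 and 10580 without TIA1 and 4434 and 3556 without TIAR. Egfl7, the brightest of them by the same measure, had a log2 fold change of -1.99 in TIAR KO MEF and fell there (limma, adjusted p = 0.014). Of 12 leukocyte markers, Ptprc, Cd3g and Emr1 were among those not well above background on any array, and the sum was 11310 and 9078, 18920 and 15720, and 10600 and 11360 in WT, TIA1 KO and TIAR KO MEF. Itgam, an integrin chain and the brightest of them, rose in TIA1 KO MEF by 1.82 ± 0.24. Aif1, a macrophage gene not well above background in either knockout, was at least 2.56-fold lower in TIAR KO than in WT MEF (limma, adjusted p = 0.0053). In TIA1 KO MEF it was at least 2.08-fold lower, a difference that did not pass the test (limma, adjusted p = 0.052). The T-cell genes of the list differed among themselves. Cd3e read 8.99 and 9.23 in WT MEF, 8.15 and 8.94 without TIA1 and 8.64 and 9.07 without TIAR, Cd4 read 10.98 and 11.11, 11.19 and 10.77, and 10.40 and 10.90, and Lck read 10.48 and 9.64, 7.63 and 8.51, and 8.91 and 9.44. These 3 genes were well above background on both TIAR KO arrays and passed no test between groups, and their values and those of Ptprc and Cd3g were picked after they were seen.

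Of 10 epithelial markers, 2 rose without TIA1 and 3 without TIAR, with Krt19 the brightest. Each was rated well above background on at least 1 array, but only 2 were so rated on all arrays. On both arrays of a group, 4 were so rated in WT MEF, 2 without TIA1 and 6 without TIAR. The summed intensity was 6163 and 6472 in WT MEF, 11210 and 11860 without TIA1 and 9301 and 8720 without TIAR. Krt18, a keratin of simple epithelia, rose in TIAR KO MEF from 7.29 and 7.30 to 10.08 and 9.95, Cdh1, E-cadherin, rose at least 2.53-fold, and its level in WT and TIA1 KO MEF was near background. Krt8 rose in both knockouts, by 1.23 ± 0.17 and 1.23 ± 0.15, and Krt19 in TIA1 KO MEF by 1.05 ± 0.15. Of 8 neuronal markers, 1 rose in each knockout, the synaptic gene Syn1, by 1.98 ± 0.20 and 1.32 ± 0.14, and Nefl, Rbfox3 and Stmn2 were near background on all arrays. Counts of 1 in lists this short are not set apart from the 2.18% and 3.39% of all probes called higher. Their summed intensity was 5817 and 4675, 10400 and 9596, and 6659 and 7180 in WT, TIA1 KO and TIAR KO MEF, with Snap25 the brightest. The part of these genes in the values of Thy1 and the PDGF genes was not tested.

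**Figure D4:**
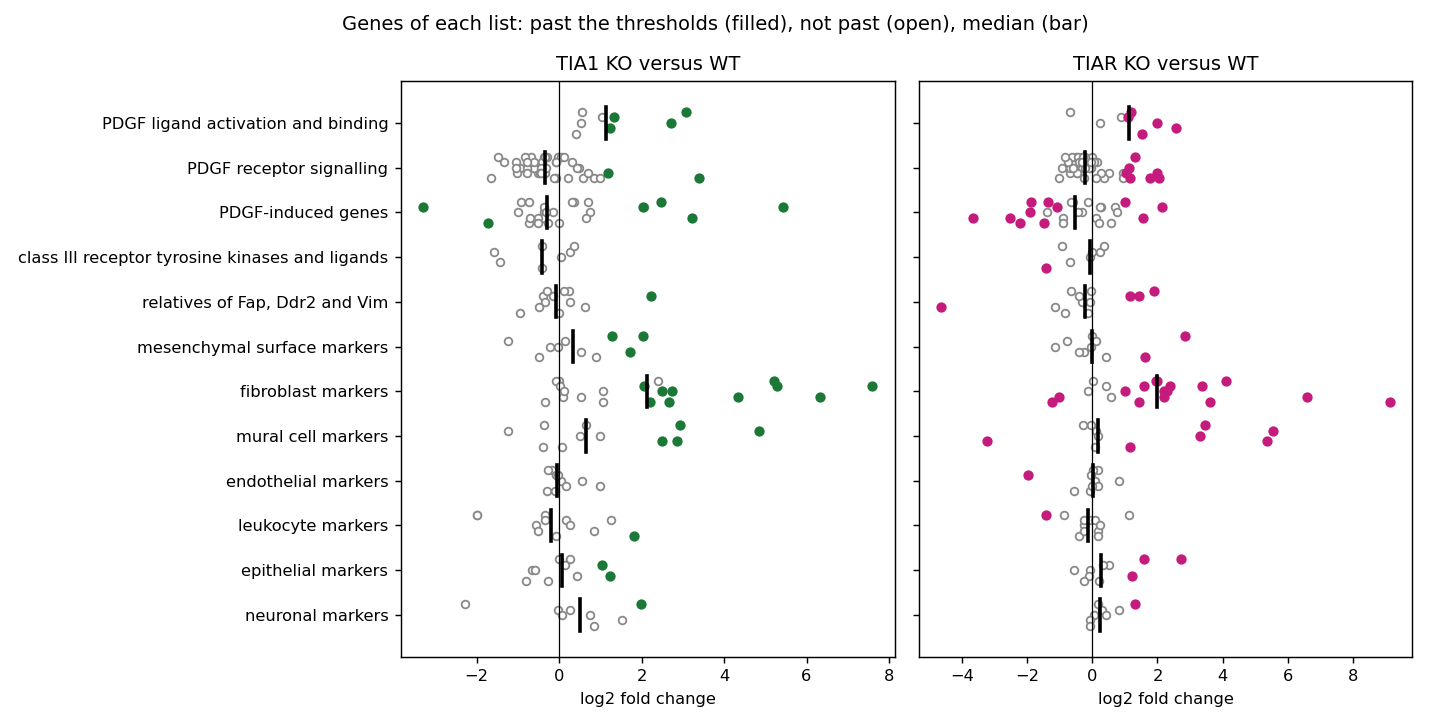
Log2 fold change against WT MEF (horizontal axis) of each gene of the 12 lists in TIA1 KO MEF (left) and TIAR KO MEF (right); filled points passed the limma thresholds, open points did not, and bars are list medians. The fibroblast marker list has medians of 2.14 and 1.98, and the signalling list has medians of -0.35 and -0.21.

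The genes whose pattern over the 6 arrays was most like Thy1 were Lpl (Pearson r = 0.9996), Hoxb6 (0.9992) and Tceal5 (0.9988), among 3062 probes compared. Lpl, lipoprotein lipase, read 6.56 and 6.71 in WT MEF, 6.91 and 7.12 without TIA1 and 15.36 and 15.32 without TIAR. For Pdgfra they were Tns1 (0.9992), which encodes the adhesion protein tensin, Osmr (0.9991), the oncostatin M receptor, and Fkbp7 (0.9988). Tns1 read 10.63 and 10.58 in WT MEF, 13.22 and 13.28 without TIA1 and 14.20 and 14.05 without TIAR. The 6 points fall into 3 groups of 2, so these correlations describe a shared order of the group levels.

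Under other ways to process the arrays, Thy1 stayed between 7.45 and 10.56 above WT MEF in TIAR KO MEF and Pdgfra between 4.83 and 8.54, over 14 alternatives each. In TIAR KO MEF, Pdgfrb, Pdgfb and Pdgfc passed the thresholds under all 14 and Pdgfa under 8. In TIA1 KO MEF, Pdgfrb passed under 10 and Pdgfb, Pdgfc and Pdgfd under 11 each. With arrays scaled to a common median, these TIA1 KO values were 2.18 for Pdgfrb, 1.66 for Pdgfb, 3.21 for Pdgfc and 2.56 for Pdgfd. Relative to the median of all probes under that scaling, they were 2.85, 2.33, 3.88 and 3.23. Without WT array 2 or WT array 1, Pdgfc still stood at 4.16 and 4.80 above WT MEF in TIA1 KO MEF, though with adjusted p of 0.23 and 0.24 (limma).

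**Figure D5:**
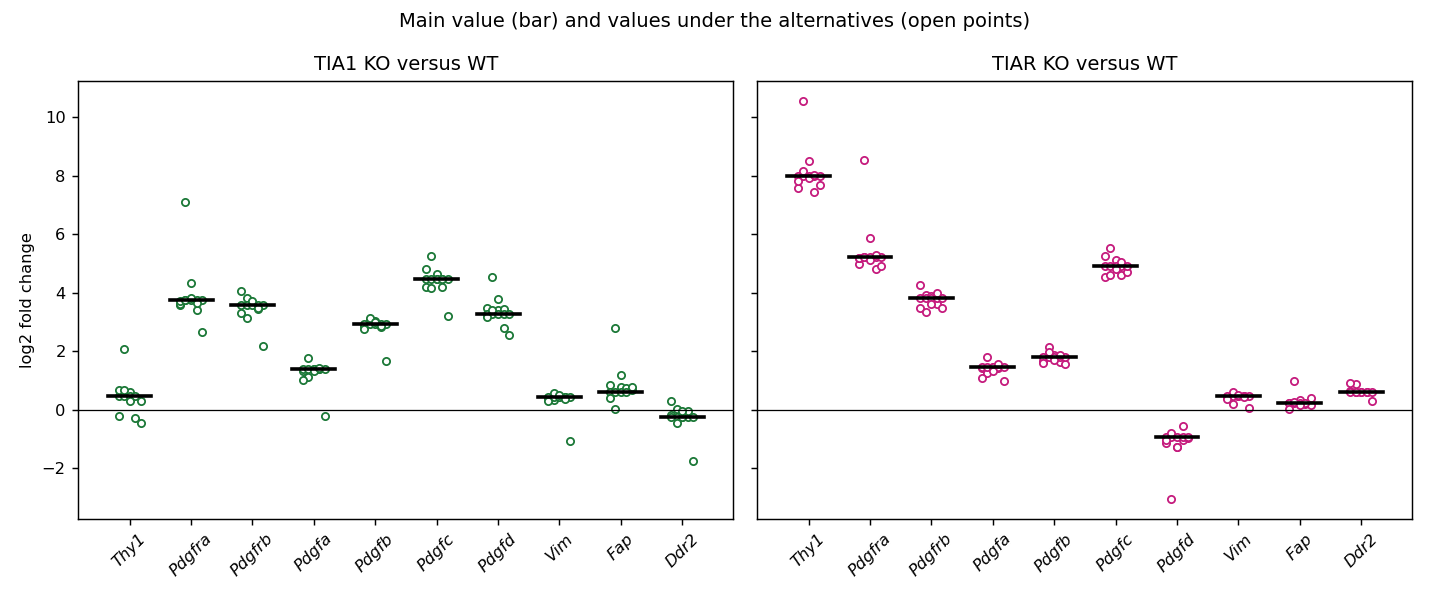
Log2 fold change against WT MEF (vertical axis) of the 10 genes in TIA1 KO MEF (left) and TIAR KO MEF (right), with the reported value as a bar and each alternative as an open point. Thy1 lies between 7.45 and 10.56 in TIAR KO MEF and between -0.46 and 2.08 in TIA1 KO MEF. The 2.08 is from the scanner software's processed signal, and is 0.09 relative to the median of all probes under that signal.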

How the data were processed

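RNA of 6 MEF samples was hybridized to 1-colour Agilent mouse arrays, 2 per group. The authors deposited the scanner output, with mean and background intensity per spot from Feature Extraction 10.7.3.1, and a normalized log2 table. The intensities were corrected here with normexp (offset 50), log2 transformed and normalized by fast cyclic loess (1 pass, each array set against the average array) and then by quantiles (R 4.3.3, limma 3.58.1). Control and outlier spots were left out and spots of a probe averaged. A probe was well above background on an array where at least 50% of its spots were so rated by the scanner software, and a gene was read from its brightest probe. Each comparison was fitted with limma on its 4 arrays and adjusted over 55681 probes by Benjamini-Hochberg, with calls at an adjusted p under 0.05 and a fold above 2. P-values measure the spread between these samples, and the 2 arrays per group limit the precision.

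Probe positions are those of the scanner files (mm9). Of 28685 probes with a RefSeq accession, 27235 matched the reference table. The genes, lists and tests were chosen with earlier results of these data known. From each list, up to 4 called genes with the largest change in either knockout against WT MEF were named, and for Thy1 and Pdgfra the 3 genes of most similar pattern among probes with both arrays of a group well above background and a span of at least 2 on the log2 scale. Alternatives covered background correction, normalization, the authors' log2 table, dim probes, the fit, the replicate number as a block and each array left out. Keeping outlier spots was added after seeing the data. Slide as a block could not be fitted with 1 slide. The code was tested on simulated data. The value of 1 list gene is not reported here.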

Additional observations from a re-analysis of the deposited data

Results flagged for a closer look

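For Pdgfd and the list genes given here, TIAR KO MEF differed from TIA1 KO MEF by a direct limma test (adjusted p under 0.05 and a fold above 2). The lines also differed in strain and their arrays in slide row, so the differences are not assigned to either protein. All these calls were lost without TIAR KO array 1 or array 2, in fits with 1 array in that group. With 1 array left out, the Pdgfd difference stayed between -4.71 and -3.70. The causes of the differences were not tested. Among the 10 genes only Pdgfd passed, lower in TIAR KO MEF by a log2 fold change of -4.21 (near background without TIAR and at least 15.2-fold). Of the ligand-binding and signalling genes, Plau was lower (-1.91) and Pdgfrl (1.34), Plcg1 (1.19) and Slc9a3r1 (2.41) were higher in TIAR KO MEF. Of the genes that PDGF induces, Egr1 (-3.29), Ctgf (-1.66), Has2 (-4.74), Ptgs2 (-4.36) and Hbegf (-2.69) were lower and Ccl2 (2.21) was higher.

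Ddr1 (1.65) and Des (1.54, near background without TIA1 and at least 2.08-fold) were higher and Nes (-5.27) was lower in TIAR KO than in TIA1 KO MEF. Of the mesenchymal and fibroblast markers, Vcam1 (2.10), Mcam (1.33), Dcn (6.48) and Dpt (2.01, near background without TIA1 and at least 2.46-fold) were higher, and Nt5e (-2.13), Alcam (-1.31), Lox (-2.13), Mfap5 (-6.01) and Fbln2 (-1.92) were lower. The mural markers Cnn1 (2.79) and Notch3 (2.50) were higher and Cspg4 (-5.74, well above background on only 1 of the 2 TIAR KO arrays) was lower. Of the markers of other cell types, Egfl7 (-1.91), Itgam (-1.66) and Snap25 (-1.57) were lower, and Cd68 (1.48), Map2 (2.44, near background without TIA1 and at least 3.80-fold), Cdh1 (1.32, near background without TIA1 and at least 1.68-fold) and Krt18 (2.72) were higher.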

How the results depend on the processing

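Called probes in TIA1 KO versus WT numbered 1969, and 1309 with the authors' table, 0 with the scanner's processed signal (27765 at an unadjusted p under 0.05), 15801 with arrays scaled to a common median, 3986 with all 3 groups fitted together, and 0 to 10735 leaving out 1 array, the highest without TIA1 KO array 2. In TIAR KO versus WT they numbered 3206, and 2307 to 2797 leaving out 1 array. Between the knockouts they numbered 1866, and 8307 with a common median, 2925 with probes well above background, 3183 with all groups together and 0 to 10086 leaving out 1 array, again highest without TIA1 KO array 2. Of the 8 genes, 4 were called in TIA1 KO MEF, and 0 with the processed signal and 0 to 5 leaving out 1 array. In TIAR KO MEF 4 were called, 3 to 4 leaving out 1 array and 5 over all probes of a gene, which adds Ddr2. Between the knockouts 1 was called, and 0 with the processed signal, 4 with a common median, 2 with probes well above background, all groups together or an intensity trend, and 0 to 2 leaving out 1 array. The replicate block left 671 called probes in TIA1 KO MEF, 3308 in TIAR KO MEF and 0 between the knockouts (10684 unadjusted). Of the 8 genes, it left 3, 3 and 0. Over all probes, same-numbered arrays deviated little together (r of 0.078, 0.03 and -0.073). Such a correlation over all probes cannot decide whether same-numbered samples were handled together. The share of calls that were higher was 61.6%, 58.8% and 51.3% in the 3 comparisons, against 11.9%, 34.4% and 87.2% with a common median, which moved the median of all probes to -0.67 in TIA1 KO MEF and 0.63 between the knockouts. The processed signal moved it to 1.98 and -1.85, with 8.28% of calls between the knockouts higher. In TIA1 KO versus WT, the sign turned for Thy1 (-0.21 with the authors' table, -0.28 without loess, -0.46 with a common median), for Pdgfa (-0.20), Vim (-1.06) and Tial1 (-0.96) with a common median, for Ddr2 (0.030 with the processed signal, 0.29 with outlier spots kept) and for Gapdh (-0.13 to 0.049 leaving out 1 array). In TIAR KO versus WT it turned for Tia1 (0.12 with the authors' table, 0.28 with the processed signal, and -1.15 to 1.03 leaving out 1 array, the highest without WT array 1) and Gapdh (-0.10 with the processed signal, -0.15 with a common median). Between the knockouts it turned for Vim (-0.13 with the processed signal, and -0.014 to 0.10 leaving out 1 array), Gapdh (-0.025 with the processed signal), Pdgfa (-0.064 to 0.19 leaving out 1 array) and Fap (-0.97 to 0.20 leaving out 1 array). Values were also taken relative to the median of all probes under the same setting. With a common median, Thy1 (0.21) and Pdgfa (0.47) stayed above 0 in TIA1 KO MEF, while Vim (-0.38) and Tial1 (-0.29) did not. With the processed signal, Ddr2 stayed below that median (-1.95) in TIA1 KO MEF, and Vim (1.71) and Gapdh (1.82) above it between the knockouts. Under that signal, Pdgfa (-0.86), Vim (-1.65), Tial1 (-1.66) and Gapdh (-2.06) lay below it in TIA1 KO MEF. Pdgfb between the knockouts was -0.94 under that signal but 0.90 relative to the median. The causes were not tested. Beside the 20 single-gene values that turned, 446 kept their direction and side of the threshold. Another 24 gained a call, 23 lost one and 23 moved otherwise. Low signal limits Thy1 in WT and TIA1 KO MEF, Pdgfra in WT MEF, Pdgfd in TIAR KO MEF and Fap in all groups.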

Other observations

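Other genes near Thy1 in their pattern over the arrays included a homeobox gene of the HoxB cluster. Hoxb6 read 8.26 and 8.36 in WT MEF, 8.26 and 8.69 without TIA1 and 14.41 and 14.35 without TIAR, and Tceal5 read 6.65 and 6.90, 6.85 and 6.95, and 9.82 and 9.98. Near Pdgfra, the cytokine receptor gene Osmr read 10.19 and 10.34 in WT MEF, 12.25 and 12.34 without TIA1 and 13.03 and 13.00 without TIAR, and Fkbp7 read 11.64 and 11.74, 13.39 and 13.50, and 14.06 and 14.13. These genes were picked for their likeness, so their values are a description.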
